A study of Mus musculus with 8 samples.

Results

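The collagens and small leucine-rich proteoglycans of salivary gland tumours were described across 8 mouse samples. The members were all non-control probes whose gene name began with Col followed by a chain number, together with those of Lum, Dcn, Bgn, Fmod and Ogn. This gave 91 probes of 46 gene names, out of 41174 probes and 27845 gene names on the array. One of these names, Col4a3bp, fitted the pattern but encodes a ceramide transfer protein and is no collagen, so it was left out of all counts below. It did not pass the test in any comparison and lay between 2.09 and 3.01 on the log2 scale of all 8 arrays. The remaining 45 genes comprised 40 collagens and 5 proteoglycans. Of these, 25 were well above background on all arrays, 16 on some and 4 on none. A total of 40 passed the filter on dim probes and were tested. The 5 untested genes were Col4a3, Col4a5, Col19a1, Col25a1 and Col28a1.

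All tumours arose in mouse salivary gland under AKT, a kinase that signals growth downstream of PI3K. There were 2 arrays of untreated tumour, 1 of tumour after 3 days of rapamycin, which inhibits the mTOR kinase, and 2 of tumour after 14 days. Normal tissue gave 2 arrays of parotid gland and 1 of submandibular gland. The labels give neither strain, age, rapamycin dose nor the transgene that carried AKT. They also leave unsaid whether replicate arrays stem from different mice, so each p-value measures only the spread between these samples.

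Collagens are triple helices of alpha chains that are secreted and assembled into matrix. Fibrillar collagens form the tensile fibrils of stroma, type IV collagens form the sheet of basement membranes, and fibril-associated collagens sit on fibril surfaces and link them to other matrix. Small leucine-rich proteoglycans bind fibrils and set their diameter and spacing. In salivary gland these molecules surround acini and ducts, and fibroblasts, endothelium, myoepithelium and epithelium each contribute to them.

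Values are log2 signals relative to the 75th percentile of their array, so 0 is the 75th percentile and a difference of 1 is 2-fold. A level of one probe was not set against that of another. Where a gene had several probes, the brightest one is reported. Between 43.2% and 58.4% of spots were well above background on an array. The level of dim spots on this scale differed between groups. Col28a1, which was not well above background on any array, read -7.32 and -7.71 in untreated tumours, -6.12 after 3 days of rapamycin, -5.42 and -5.87 after 14 days, -5.55 and -5.24 in parotid glands and -5.12 in the submandibular gland. A gene at background in every group could thus read lowest in untreated tumours. Where every probe of a gene was dim throughout one group, its fold is written as "at least". The salivary acinar markers that define gland tissue had summed levels of 69.1 and 108 times the 75th percentile in untreated tumours, 86.0 after 3 days of rapamycin, 3480 and 3090 after 14 days, 2270 and 5130 in parotid glands and 1480 in the submandibular gland. Both day 14 arrays read Xist as well as Y-linked genes above background, whereas each other array read only one of these. The untreated tumours, the first parotid array and the first day 14 array shared slide 1, with the remaining 4 arrays on slide 2. In these tissue pieces, fewer cells of a type and less RNA per cell cannot be told apart.

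Promoter sequences are shown for the genes whose changes recur below: the type IX chains, the paired type IV chains and Ogn. RefSeq promoters on GRCm38.p6, from 250 bases before to 50 bases after each annotated start, were found for 35 of the 45 genes, with 38 promoters in all. Capitals mark any of 5 short motifs, read on either strand: the TATA box written as TATAAA, the CCAAT box, the GC box with the letters GGGCGG, the core of SOX factor sites spelled AACAAT, and a core of TCF factor sites spelled CTTTGAT. Col9a1 has 2 annotated starts, and its array values were not assigned to either. The sequences run 5′ to 3′ on the strand of the gene.
Col9a1 upstream start, chr1:24177360-24177659, plus strand: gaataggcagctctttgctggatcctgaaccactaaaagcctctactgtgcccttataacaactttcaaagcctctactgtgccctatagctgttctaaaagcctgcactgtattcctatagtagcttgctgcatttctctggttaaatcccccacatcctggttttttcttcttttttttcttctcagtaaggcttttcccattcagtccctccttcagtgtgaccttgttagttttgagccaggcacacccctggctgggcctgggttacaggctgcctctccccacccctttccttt
Col9a1 downstream start, chr1:24194953-24195252, plus strand: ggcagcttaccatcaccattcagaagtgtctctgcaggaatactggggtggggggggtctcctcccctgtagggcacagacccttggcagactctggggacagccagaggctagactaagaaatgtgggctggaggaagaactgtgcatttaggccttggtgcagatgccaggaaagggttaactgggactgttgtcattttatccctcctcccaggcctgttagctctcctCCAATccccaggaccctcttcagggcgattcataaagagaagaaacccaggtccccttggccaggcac
Col9a2, chr4:121039316-121039615, plus strand: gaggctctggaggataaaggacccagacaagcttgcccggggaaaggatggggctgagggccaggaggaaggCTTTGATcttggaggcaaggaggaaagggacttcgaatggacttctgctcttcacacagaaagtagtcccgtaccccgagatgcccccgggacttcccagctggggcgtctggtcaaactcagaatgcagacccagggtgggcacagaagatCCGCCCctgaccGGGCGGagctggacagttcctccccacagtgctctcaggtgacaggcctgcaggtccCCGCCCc
Col4a1, chr8:11312777-11313076, minus strand: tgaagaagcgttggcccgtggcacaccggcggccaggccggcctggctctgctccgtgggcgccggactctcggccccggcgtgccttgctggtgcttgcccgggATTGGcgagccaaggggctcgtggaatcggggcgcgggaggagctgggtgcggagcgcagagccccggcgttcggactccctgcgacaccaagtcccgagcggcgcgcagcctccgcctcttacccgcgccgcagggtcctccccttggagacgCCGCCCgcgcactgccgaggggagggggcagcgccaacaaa
Col4a2, chr8:11312555-11312854, plus strand: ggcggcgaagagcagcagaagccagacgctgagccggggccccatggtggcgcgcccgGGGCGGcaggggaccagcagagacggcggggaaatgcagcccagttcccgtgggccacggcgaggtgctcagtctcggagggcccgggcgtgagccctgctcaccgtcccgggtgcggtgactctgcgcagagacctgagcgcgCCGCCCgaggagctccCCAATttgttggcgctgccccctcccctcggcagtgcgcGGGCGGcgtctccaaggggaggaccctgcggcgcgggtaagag
Ogn, chr13:49607765-49608064, plus strand: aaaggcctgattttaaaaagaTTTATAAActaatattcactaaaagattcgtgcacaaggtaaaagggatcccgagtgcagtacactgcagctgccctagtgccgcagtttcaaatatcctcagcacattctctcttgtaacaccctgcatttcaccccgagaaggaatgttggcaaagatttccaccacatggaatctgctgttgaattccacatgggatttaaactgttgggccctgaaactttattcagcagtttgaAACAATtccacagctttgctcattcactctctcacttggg

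Col4a1 and Col4a2 are transcribed in opposite directions, and their annotated starts lay 21 bases apart. Each start lies within the other transcript, so the 5′ ends overlap, and the windows share 78 bases. The GC box GGGCGG was found in 21 of the 38 promoters of these genes (55.3%), against 35.7% of all 32851 promoters. CCAAT was found in 13 (34.2%), against 37.4% of all, and TATAAA in 6 (15.8%), against 13.6%. AACAAT was present in 2 of the 38 (5.26%), against 3521 of all 32851, and CTTTGAT in 1 (2.63%), against 3.73%. None of these motifs lay in the upstream window of Col9a1, and its downstream window held only CCAAT. Col9a2 carried 3 GC boxes and the only CTTTGAT of the set. These matches describe the letters of the windows and were not tied to a factor.

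Untreated tumours differed from parotid glands in 19 of the 40 tested genes. Genes of the type IX, VIII, XIV and XVI collagens and both main type IV chains were among those higher, whereas Lum, Dcn, Ogn, Col7a1 and Col17a1 were among those lower. By limma with Benjamini-Hochberg adjustment over 16473 genes, 9 were higher (22.5%), against 18.6% of all genes tested, and 10 were lower (25.0%), against 20.3%. The shares were thus near those of all genes. Their median difference was 0.03 on the log2 scale, and that of all genes was 0.01. With normexp background correction 13 of the genes passed, 8 higher and 5 lower, and 4195 of all 16473 genes did. With slide as a block 15 of the genes passed, and within slide 1 alone 15 passed. Without untreated tumour replicate 1, 5 were higher and 14 lower; without replicate 2, 10 were higher and 6 lower. In 13 of the 19, the reported probe exceeded background on both arrays of each group.

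After 14 days of rapamycin, 23 of the 40 genes differed from untreated tumours. Here 13 were higher (32.5%), against 24.3% of all genes, and 10 were lower (25.0%), against 23.3%. The median difference was -0.65, against 0.03 over all genes. Both comparisons use the same untreated tumour arrays, so opposite signs in them are not independent. With normexp background correction 18 of the 40 passed, 8 higher and 10 lower, and 5123 of all 16473 genes did. With slide as a block 20 passed, and within slide 1 alone 18 passed. Leaving out either day 14 array, or counting the pair as 1 sample, left fewer calls, here and over all genes. In 14 of the 23, the reported probe was well above background on all arrays of both groups.

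**Figure D1:**
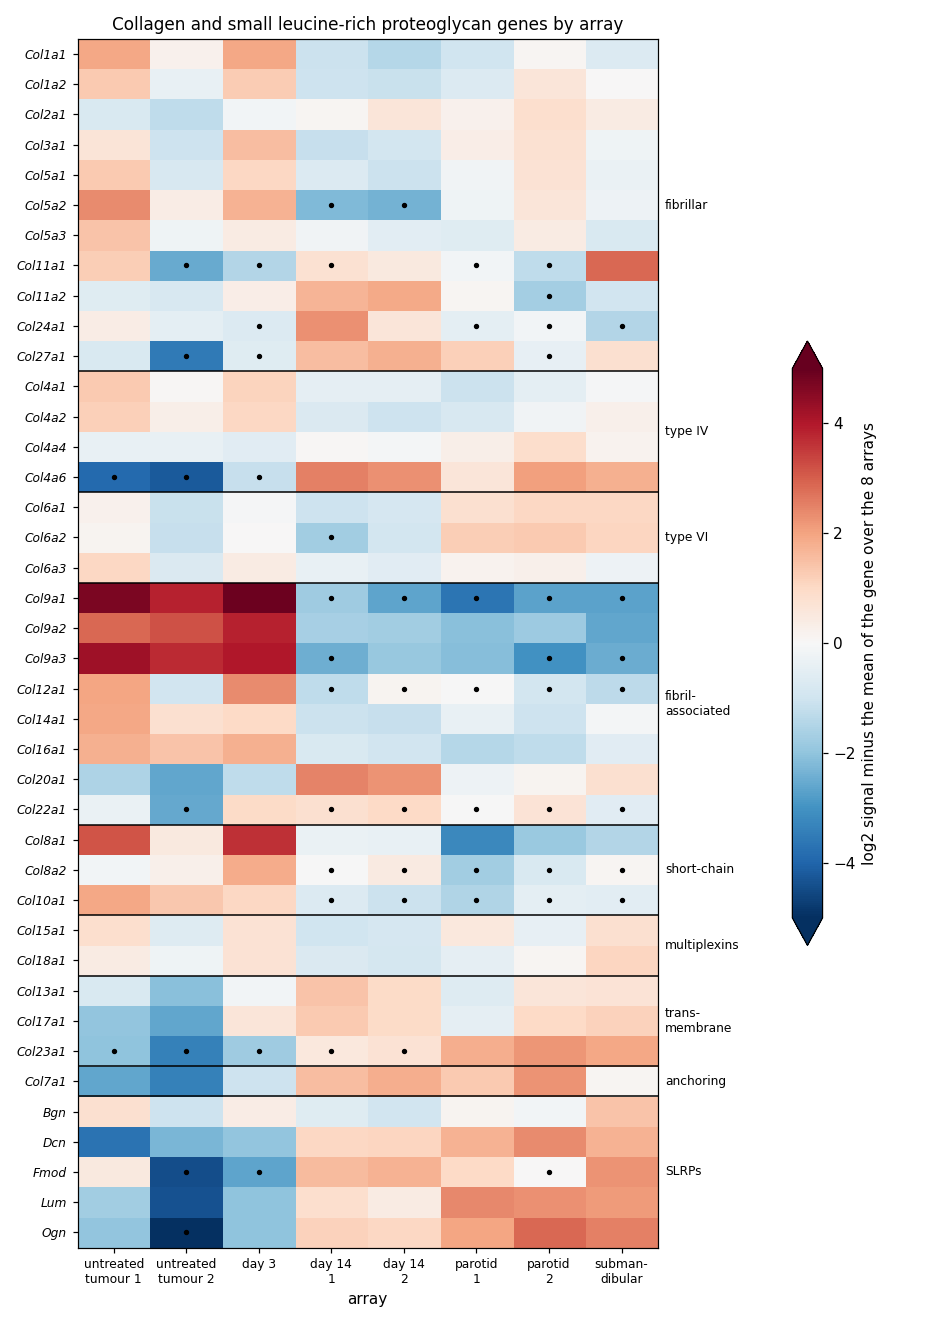
Log2 signal of the 40 tested genes (rows, by collagen type) on the 8 arrays (columns), minus the mean of each gene over the arrays. Black dots mark arrays where the plotted probe was not well above background, and the colour scale ends at 5 in either direction. Type IX chains stood high on both untreated tumours and at day 3, and Dcn, Lum and Ogn stood low there.

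**Figure D2:**
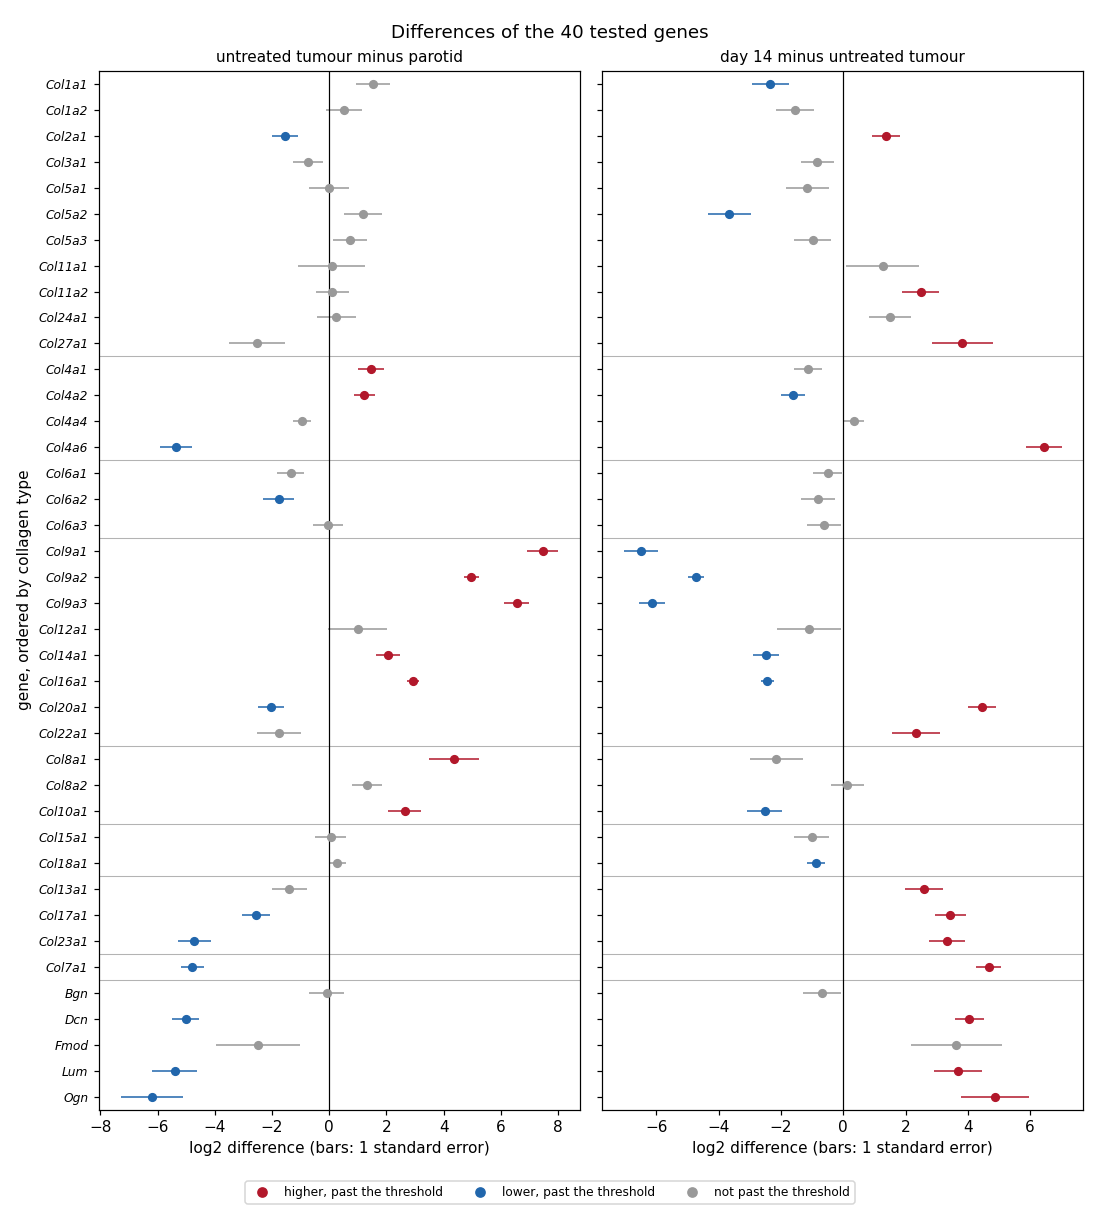
Log2 differences with 1 standard error for untreated tumour minus parotid (left, n = 2 each) and day 14 minus untreated tumour (right, n = 2 each), ordered by collagen type. In the left panel 9 genes were higher and 10 lower, and in the right panel 13 were higher and 10 lower.

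Among the fibrillar collagens, the type I and III genes, which form the bulk of stromal fibrils, did not pass the test between untreated tumour and parotid. Of 11 fibrillar genes, 1 was lower and none higher, against 20.3% and 18.6% of all genes, with a median difference of 0.11. The gene that was lower was Col2a1, the cartilage fibril chain, by 1.54 on its reported probe, a call lost with normexp correction. Col1a1, the major chain of type I collagen, had log2 values of 5.35 and 3.62 in untreated tumours, 5.34 after 3 days of rapamycin, 2.32 and 1.97 after 14 days, 2.43 and 3.49 in parotid glands and 2.74 in the submandibular gland. Both untreated tumours lay above both parotid glands and the 2 tumours were far apart. The difference was 1.53 ± 0.60 (SE; limma adjusted p = 0.0896). Between day 14 and untreated tumours Col1a1 fell by 2.34 (SE 0.60, limma adjusted p = 0.0209), a 5.07-fold lower signal. Without untreated tumour replicate 1 this difference was -1.48 and did not pass (adjusted p = 0.0739), and within slide 1 it was -2.17 (adjusted p = 0.0652). A second Col1a1 probe about 1 kb upstream was well above background on all 8 arrays and gave 1.96 (adjusted p = 0.0516) and -2.61 (adjusted p = 0.0160) for the same comparisons.

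Col1a2, the partner chain of type I collagen, read 6.06 and 4.37 in untreated tumours, 6.03 after 3 days of rapamycin, 3.70 and 3.63 after 14 days, 4.06 and 5.33 in parotid glands and 4.77 in the submandibular gland. The 2 tumours straddled the upper parotid value. Neither difference passed, at 0.52 ± 0.62 for untreated tumour against parotid and -1.55 ± 0.62 for day 14 against untreated tumour (SE; limma adjusted p = 0.538 and 0.0839). Col3a1, which forms thin reticular fibrils, read 4.06 and 2.37 in untreated tumours, 4.94 after 3 days of rapamycin, 2.26 and 2.49 after 14 days, 3.74 and 4.18 in parotid glands and 3.19 in the submandibular gland. Its values overlapped between untreated tumours and both other replicated groups, with differences of -0.74 ± 0.53 from parotid and -0.84 ± 0.53 at day 14 from untreated tumour (SE; limma adjusted p = 0.299 and 0.229).

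Between day 14 and untreated tumours, 3 of 11 fibrillar genes were higher and 2 lower, against 24.3% and 23.3% of all genes. Col5a2, a chain that nucleates type I fibrils, read 0.67 and -1.34 in untreated tumours, 0.06 at day 3 and -1.92, -1.10 and -1.94 in the 3 normal glands. At day 14 it was not well above background on either array and was at least 8.81-fold lower than in untreated tumours (limma adjusted p = 0.00674). Col11a2 of type XI collagen read -2.15 and -2.35 in untreated tumours, -1.22 after 3 days of rapamycin, 0.13 and 0.34 after 14 days, -1.45 and -3.26 in parotid glands and -2.53 in the submandibular gland. The day 14 arrays were the highest. It was 5.60-fold higher (2.49 ± 0.59, limma adjusted p = 0.0162), and without either untreated tumour the call was lost (adjusted p = 0.0596 and 0.0775). Col27a1 read -3.80 and -6.57 in untreated tumours, -3.62 after 3 days of rapamycin, -1.49 and -1.24 after 14 days, -1.83 and -3.46 in parotid glands and -2.24 in the submandibular gland, with 1 of 2 untreated tumours well above background. Its difference of 3.82 ± 0.98 (limma adjusted p = 0.0203) was 2.44 without untreated tumour replicate 2 and did not pass then. Col2a1, the remaining gene called, was higher by 1.37 on its reported probe. Col5a1, Col5a3, Col11a1 and Col24a1 passed in neither comparison.

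Type IV collagens of the basement membrane did not move together. Col4a1 and Col4a2, whose chains form the ubiquitous network and whose shared promoter is printed above, were higher in untreated tumours than in parotid glands. Col4a1 read 2.34 and 1.09 in untreated tumours, 2.16 after 3 days of rapamycin, 0.56 and 0.59 after 14 days, -0.03 and 0.55 in parotid glands and 0.96 in the submandibular gland. Col4a2 read 1.85 and 0.93 in untreated tumours, 1.67 after 3 days of rapamycin, -0.08 and -0.38 after 14 days, -0.15 and 0.47 in parotid glands and 0.91 in the submandibular gland. For both genes the untreated tumours lay above the parotid glands and the day 14 tumours without overlap, and untreated tumour replicate 2 lay close to the submandibular gland.

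Col4a1 was 2.74-fold higher in untreated tumours than in parotid glands (1.46 ± 0.44, limma adjusted p = 0.0413) and Col4a2 2.35-fold higher (1.23 ± 0.38, adjusted p = 0.0461). Both calls lay near the threshold. Without untreated tumour replicate 1 the differences were 0.83 and 0.77 and did not pass (adjusted p = 0.189 and 0.246), and with slide as a block they were 1.61 and 1.31 (adjusted p = 0.0641 and 0.0820). A second probe of Col4a1 gave 0.66 (adjusted p = 0.203), and one of Col4a2 gave 1.08 (adjusted p = 0.0412). At day 14 Col4a2 fell by 1.62 relative to untreated tumours (SE 0.38, limma adjusted p = 0.0157), with -1.16 and no call without untreated tumour replicate 1. Col4a1 differed by -1.14 ± 0.44 and did not pass (adjusted p = 0.0723).

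Col4a6, a chain of epithelial and smooth muscle basement membranes, ran the other way. Its reported probe read -0.80 and -1.04 at day 14, -2.73 and -1.27 in parotid glands and -1.54 in the submandibular gland, but was not well above background in untreated tumours (-7.19 and -7.53) or at day 3 (-4.46). The fitted differences were -5.36 ± 0.57 for untreated tumour against parotid and 6.44 ± 0.57 for day 14 against untreated tumour (SE; limma adjusted p = 0.00107 and 0.000562). A second probe, well above background on 7 arrays, gave -1.23 (adjusted p = 0.185) and 1.56 (adjusted p = 0.0913). With normexp background correction the reported probe gave -1.40 and 1.97, neither past the threshold. The direction was shared by both probes, and the size was not. Col4a4, a chain best known from kidney and lung basement membranes, passed in neither comparison, with -0.96 and 0.34, and Col4a3 and Col4a5 were not tested.

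The beaded-filament type VI collagens form microfibrils around cells. Of 3 genes, only Col6a2 passed the test, as lower in untreated tumours than in parotid glands. It read -2.15 and -3.43 in untreated tumours, -2.28 after 3 days of rapamycin, -4.03 and -3.19 after 14 days, -1.06 and -0.98 in parotid glands and -1.21 in the submandibular gland. The day 14 array with -4.03 was not well above background. Col6a2 fell by 1.77 in untreated tumours relative to parotid glands (SE 0.54, limma adjusted p = 0.0428), a call lost with slide as a block (-1.54, adjusted p = 0.112) and without untreated tumour replicate 2 (-1.13, adjusted p = 0.219). Col6a1 and Col6a3 differed by -1.35 and -0.05 and did not pass. None of the 3 passed between day 14 and untreated tumours.

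The type IX collagens, fibril-associated chains best known from cartilage and the eye, showed the largest rises of all collagen genes in untreated tumours. Their 3 chains assemble into 1 molecule on fibril surfaces. Col9a1 read 2.19 and 1.31 in untreated tumours, 2.36 after 3 days of rapamycin, -4.32 and -5.17 after 14 days, -6.20 and -5.22 in parotid glands and -5.20 in the submandibular gland. It was well above background on the 3 arrays of untreated and day 3 tumours and on none of the other 5. Col9a2 read 3.03 and 3.37 in untreated tumours, 4.02 after 3 days of rapamycin, -1.50 and -1.58 after 14 days, -1.90 and -1.63 in parotid glands and -2.44 in the submandibular gland. Col9a3 read 3.26 and 2.75 in untreated tumours, 3.01 after 3 days of rapamycin, -3.42 and -2.86 after 14 days, -3.09 and -4.01 in parotid glands and -3.44 in the submandibular gland. For all 3 chains the untreated and day 3 tumours formed a high set, and the 5 other arrays a low set, with no overlap.

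Against parotid glands, Col9a1 was at least 40.3-fold higher in untreated tumours (limma adjusted p = 0.000367). Col9a2 was 31.3-fold higher (4.97 ± 0.26, limma adjusted p = 0.000139). Col9a3 differed by 6.55 ± 0.43 (limma adjusted p = 0.000262) and was well above background on 1 of the 2 parotid arrays. At day 14, relative to untreated tumours, Col9a1 was at least 37.3-fold lower (limma adjusted p = 0.000530), Col9a2 was 26.8-fold lower (-4.74 ± 0.26, adjusted p = 0.000175) and Col9a3 differed by -6.14 ± 0.43 (adjusted p = 0.000310), with 1 of 2 day 14 arrays well above background. Against the submandibular gland, untreated tumours were at least 26.1-fold higher for Col9a1, 49.9-fold for Col9a2 and at least 62.2-fold for Col9a3 (limma adjusted p = 0.00127, 0.000307 and 0.000719).

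These Col9a2 calls held under every alternative tried. Those of Col9a1 and Col9a3 held under each alternative in which they were tested. This leaves out the one limited to probes above background on all 8 arrays. Both genes entered the test only through the untreated and day 3 tumours, where they are high. Within slide 1 the differences of untreated tumour from parotid were 7.95, 5.11 and 6.09 for Col9a1, Col9a2 and Col9a3. With normexp background correction they were 3.89, 4.07 and 4.39, the smallest values. The 3 genes lie on chromosomes 1, 4 and 2. Col19a1, a further fibril-associated collagen of chromosome 1, was dim on all 8 arrays with all 4 of its probes. The partner of type IX in cartilage, type II collagen, did not rise with it on the reported probe. There Col2a1 read -3.77 and -4.27 in untreated tumours, against -2.79 and -2.17 in parotid glands. A second Col2a1 probe at an overlapping position was well above background on 1 array only. It read -3.37 and -5.66 in untreated tumours, against -4.77 and -4.55 in parotid glands, and did not repeat the fall.

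**Figure D3:**
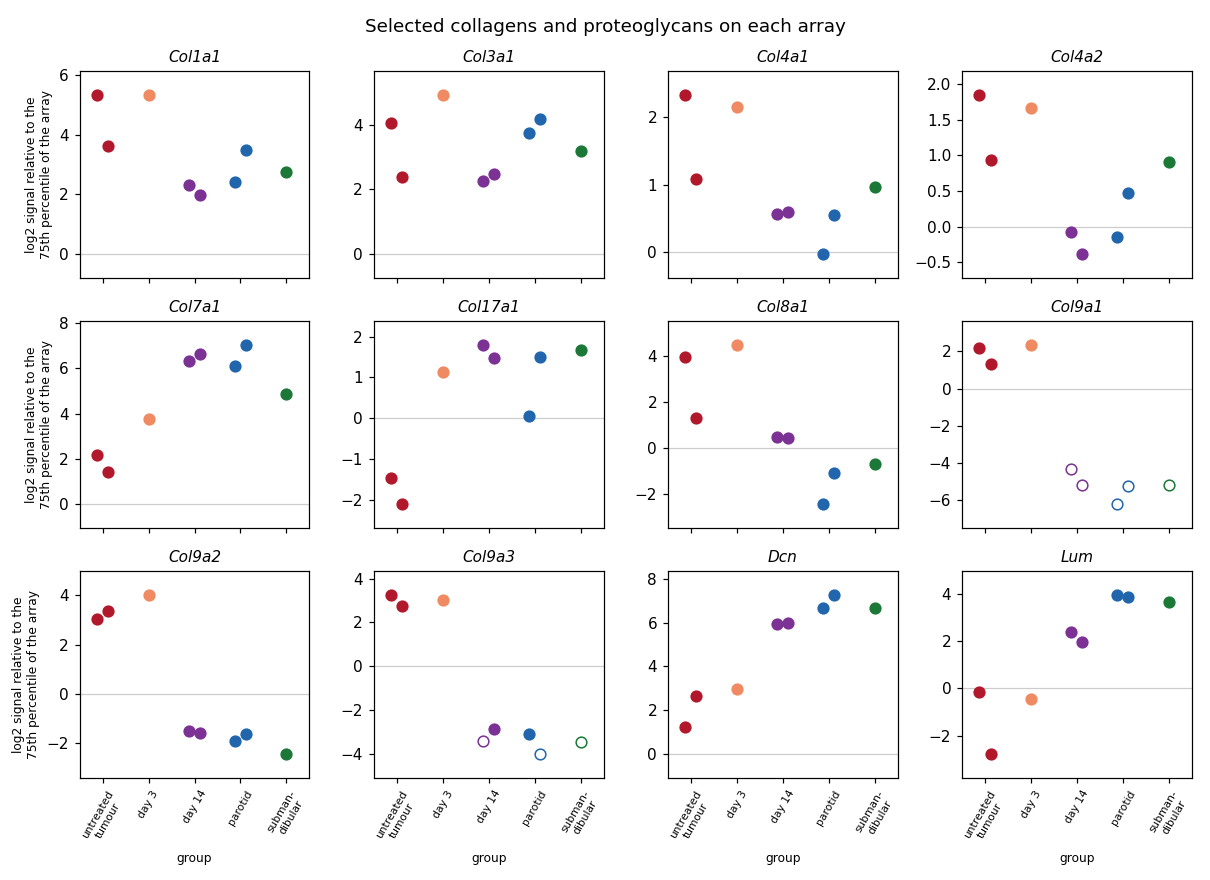
Log2 signal relative to the 75th percentile of the array for 12 genes, with 1 point per array and the groups along the horizontal axis. Open points were not well above background. Col9a1, Col9a2 and Col9a3 were high on untreated and day 3 tumours and low on the other 5 arrays, while Col7a1 and Dcn were lower on those 3 arrays than elsewhere.

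Of all 8 tested fibril-associated collagens, the 3 type IX chains included, 5 were higher and 1 lower in untreated tumours than in parotid glands. The median was 2.49, and of all genes 18.6% were higher and 20.3% lower. Beside type IX, Col14a1 and Col16a1 were higher and Col20a1 was lower. Col16a1, a chain found at cell surfaces and in fibril networks, read 4.72 and 4.39 in untreated tumours, 4.73 after 3 days of rapamycin, 2.21 and 2.01 after 14 days, 1.54 and 1.69 in parotid glands and 2.38 in the submandibular gland. It was 7.65-fold higher in untreated tumours than in parotid glands (2.94 ± 0.21, limma adjusted p = 0.000339) and 5.43-fold lower at day 14 than in untreated tumours (adjusted p = 0.000557). Col14a1, a regulator of fibril assembly, was 4.15-fold higher in untreated tumours than in parotid glands (2.05 ± 0.42, adjusted p = 0.0117) and 5.58-fold lower at day 14 than in untreated tumours (adjusted p = 0.00478).

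Col20a1 read -3.50 and -4.58 in untreated tumours, -3.24 after 3 days of rapamycin, 0.51 and 0.29 after 14 days, -2.20 and -1.82 in parotid glands and -1.18 in the submandibular gland. The day 14 arrays were the highest of all. It was 4.09-fold lower in untreated tumours than in parotid glands (limma adjusted p = 0.0155) and 21.7-fold higher at day 14 than in untreated tumours (4.44 ± 0.45, adjusted p = 0.000840). The call of Col20a1 against parotid glands was lost with normexp correction. Col22a1 passed at day 14 against untreated tumour (2.33, adjusted p = 0.0486) although it was dim on both day 14 arrays, so that no fold is given. Col12a1 passed in neither comparison.

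Among the network-forming short-chain collagens, Col8a1 was higher in untreated tumours than in parotid glands. Col8a1, a chain of vessel walls and of subendothelial matrix, read 3.94 and 1.29 in untreated tumours, 4.47 after 3 days of rapamycin, 0.47 and 0.45 after 14 days, -2.42 and -1.06 in parotid glands and -0.67 in the submandibular gland. All tumours lay above all 3 normal glands. Col8a1 was 20.5-fold higher in untreated tumours than in parotid glands (4.36 ± 0.86, limma adjusted p = 0.0103), with 3.03 without untreated tumour replicate 1 and 5.68 without replicate 2, both past the threshold. Its second, dimmer probe gave 3.24 (adjusted p = 0.0329). Between day 14 and untreated tumours the difference of -2.15 ± 0.86 on the reported probe did not pass (limma adjusted p = 0.0826). The second probe gave -2.71 there and passed (adjusted p = 0.0462).

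Col10a1, the chain of hypertrophic cartilage, was well above background only on the untreated and day 3 tumours, at -2.74, -3.32 and -3.63. It entered the test only through these groups, where it is high. By the bound it was at least 1.47-fold higher in untreated tumours than in parotid glands and at least 1.36-fold lower at day 14 than in untreated tumours (limma adjusted p = 0.0132 and 0.0123). With normexp correction its differences were 0.24 and -0.07. Without either untreated tumour neither call held (adjusted p between 0.0525 and 0.0995). Col8a2 differed by 1.31 between untreated tumour and parotid and did not pass.

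Neither multiplexin, a collagen class of basement membrane zones, passed the test between untreated tumours and parotid glands (differences 0.28 for Col18a1 and 0.05 for Col15a1). Col18a1, whose fragment endostatin inhibits vessel growth, read 3.44 and 2.83 in untreated tumours, 3.76 after 3 days of rapamycin, 2.33 and 2.16 after 14 days, 2.59 and 3.13 in parotid glands and 4.11 in the submandibular gland, the highest array. It was 1.86-fold lower at day 14 than in untreated tumours (-0.89 ± 0.29, limma adjusted p = 0.0456). That call was lost with slide as a block (-0.99, adjusted p = 0.0671) and without untreated tumour replicate 1 (-0.59, adjusted p = 0.257) or replicate 2 (-1.20, adjusted p = 0.0583). A second Col18a1 probe, well above background on all 8 arrays, gave -1.40 at day 14 against untreated tumours (limma adjusted p = 0.0105). Between the same groups Col15a1 differed by -1.02 and did not pass.

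The collagens that anchor epithelium to stroma were lower in untreated tumours and higher at day 14. Col7a1 forms the anchoring fibrils beneath basement membranes. It read 2.17 and 1.41 in untreated tumours, 3.77 after 3 days of rapamycin, 6.31 and 6.61 after 14 days, 6.11 and 7.04 in parotid glands and 4.87 in the submandibular gland. The untreated tumours were the lowest arrays, day 3 lay between, and day 14 overlapped with parotid. Col7a1 was 27.7-fold lower in untreated tumours than in parotid glands (-4.79 ± 0.40, limma adjusted p = 0.000499) and 25.5-fold higher at day 14 than in untreated tumours (4.67 ± 0.40, adjusted p = 0.000524). Both calls held under every alternative tried, with -4.32 and 4.52 within slide 1.

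Col17a1, the transmembrane collagen of hemidesmosomes in basal epithelial cells, read -1.48 and -2.11 in untreated tumours, 1.12 after 3 days of rapamycin, 1.80 and 1.48 after 14 days, 0.06 and 1.49 in parotid glands and 1.67 in the submandibular gland. The untreated tumours lay below every other array. It was 5.91-fold lower in untreated tumours than in parotid glands (-2.56 ± 0.50, limma adjusted p = 0.00952) and 10.8-fold higher at day 14 than in untreated tumours (3.43 ± 0.50, adjusted p = 0.00277). The first call was lost without untreated tumour replicate 2 (-2.25, adjusted p = 0.0571). Basal epithelial markers had summed levels of 32.5 and 25.9 in untreated tumours, 71.3 after 3 days of rapamycin, 46.7 and 43.7 after 14 days, 25.2 and 57.1 in parotid glands and 60.9 in the submandibular gland, with all 5 genes above background on every array. Their part in the Col17a1 result was not tested.

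Col23a1, a transmembrane collagen of epithelium, read -2.39 and -1.98 in parotid glands and -2.26 in the submandibular gland, and its reported probe was not well above background on any tumour array. Untreated tumours gave -6.22 and -7.59 and day 14 tumours -3.66 and -3.46. The gene entered the test only through the normal glands, where it is high. The fitted differences, -4.72 between untreated tumour and parotid and 3.34 between day 14 and untreated tumour, had limma adjusted p = 0.00180 and 0.00512. The day 14 difference set dim arrays against dim arrays, and Col28a1, dim everywhere, also read higher at day 14 than in untreated tumours. With normexp correction the Col23a1 differences were -1.19 and 0.93 and did not pass. Col13a1, found at cell junctions and at the neuromuscular synapse, read -2.50 and -3.83 in untreated tumours, -1.87 after 3 days of rapamycin, -0.33 and -0.79 after 14 days, -2.39 and -1.14 in parotid glands and -1.07 in the submandibular gland. It was 6.08-fold higher at day 14 (2.60 ± 0.61, adjusted p = 0.0152), a call lost without untreated tumour replicate 2 (1.94, adjusted p = 0.0811).

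Among the small leucine-rich proteoglycans, 3 of 5 were lower in untreated tumours than in parotid glands, against 20.3% of all genes. The same 3 were higher at day 14 than in untreated tumours, against 24.3% of all genes. Dcn, decorin, which coats collagen fibrils and binds TGF-beta, read 1.23 and 2.64 in untreated tumours, 2.95 after 3 days of rapamycin, 5.96 and 6.0 after 14 days, 6.65 and 7.27 in parotid glands and 6.66 in the submandibular gland. Lum, lumican, a keratan sulfate proteoglycan that regulates fibril diameter, read -0.15 and -2.79 in untreated tumours, -0.43 after 3 days of rapamycin, 2.41 and 1.99 after 14 days, 3.98 and 3.87 in parotid glands and 3.69 in the submandibular gland. Ogn, osteoglycin or mimecan, read -2.88 and -6.51 in untreated tumours, -2.92 after 3 days of rapamycin, 0.23 and 0.13 after 14 days, 1.04 and 1.94 in parotid glands and 1.59 in the submandibular gland. For each of them the untreated and day 3 tumours lay below all other arrays, and the day 14 tumours lay between those and the normal glands.

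Dcn was 32.5-fold lower in untreated tumours than in parotid glands (-5.02 ± 0.47, limma adjusted p = 0.000722) and 16.5-fold higher at day 14 than in untreated tumours (4.05 ± 0.47, adjusted p = 0.00131). Lum was 42.2-fold lower in untreated tumours than in parotid glands (-5.40 ± 0.78, adjusted p = 0.00321) and 12.8-fold higher at day 14 than in untreated tumours (3.68 ± 0.78, adjusted p = 0.0106). Ogn was well above background on 1 of 2 untreated tumours, with differences of -6.19 ± 1.09 from parotid (adjusted p = 0.00669) and 4.88 ± 1.09 at day 14 from untreated tumour (adjusted p = 0.0126). Leaving out 1 untreated tumour moved the Ogn difference from parotid to -8.00 or -4.37 and the Lum difference to -6.72 or -4.08, all past the threshold. All 3 of these differences from parotid held under every alternative in which the gene was tested. Within slide 1 the call of Ogn at day 14 was lost (4.93, adjusted p = 0.0538), and the calls of Lum and Ogn at day 14 were lost without either day 14 array.

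Bgn and Fmod did not pass the test in either comparison. Bgn, biglycan, the close relative of decorin, read -0.79 and -2.62 in untreated tumours, -1.23 after 3 days of rapamycin, -2.20 and -2.56 after 14 days, -1.47 and -1.75 in parotid glands and -0.18 in the submandibular gland. Its groups overlapped, and the differences were -0.09 ± 0.61 between untreated tumour and parotid and -0.68 ± 0.61 between day 14 and untreated tumour, neither past the threshold (limma adjusted p = 0.916 and 0.390). Fmod, fibromodulin, which shares collagen sites with lumican, read -2.96 and -7.89 in untreated tumours, -6.07 after 3 days of rapamycin, -1.86 and -1.72 after 14 days, -2.47 and -3.41 in parotid glands and -1.21 in the submandibular gland. It was dim on untreated tumour replicate 2, day 3 and parotid replicate 2, and the 2 untreated tumours lay further apart than any pair of group means. Its differences of -2.48 ± 1.46 and 3.63 ± 1.46 did not pass (adjusted p = 0.221 and 0.0837).

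At day 3, 1 array was available, and none of the 40 genes passed against untreated tumours, where 1 gene of all 16473 passed (0.00607%). At an unadjusted p under 0.05, 7 of the 40 passed: Col3a1, Col4a6, Col7a1, Col8a2, Col9a2, Col17a1 and Col22a1, all higher at day 3. Of all genes, 8.77% passed this unadjusted threshold. The largest of the 7 differences were 2.91 ± 0.61 for Col17a1, 2.90 ± 0.69 for Col4a6, whose reported probe was dim in both groups, and 2.40 ± 0.95 for Col22a1 (SE; limma adjusted p = 0.242, 0.296 and 0.556). Leaving out either parotid array, which changes only the pooled spread, raised the counts for these genes and over all genes. The median over the 40 genes was 0.79, against 0.00 over all genes. The 2 untreated tumours themselves differed, replicate 1 reading above replicate 2 by a median of 1.12 over 33 members. Col28a1, dim on every array, also read higher at day 3 (-6.12) than in untreated tumours (-7.32 and -7.71). The part of either in the day 3 median was not tested. The single day 3 array was assumed to vary like the replicated groups.

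Between day 14 and day 3, 15 of the 40 genes differed. Of these, 4 were higher at day 14, against 11.5% of all genes, and 11 were lower (27.5%), against 10.9%. Those lower were the type IX chains, Col1a1, Col3a1, Col5a2, Col4a2, Col8a1, Col14a1, Col16a1 and Col18a1. Those higher were Col4a6, Col7a1, Col20a1 and Dcn. Col3a1 fell by 2.56 (SE 0.64, limma adjusted p = 0.0362) and Col8a1 by 4.01 (SE 1.06, adjusted p = 0.0410), whereas neither passed at day 14 against untreated tumours. Both calls were lost with slide as a block (-2.40 and -3.67), with no intensity trend and without either day 14 array. The second, dimmer Col8a1 probe did pass at day 14 against untreated tumours (-2.71). Leaving out either day 14 array, or counting both as 1 sample, left fewer calls, here and over all genes. With slide as a block 10 of the 40 passed, against 2824 of all 16473 genes.

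Day 14 tumours and parotid glands differed in few of these genes. Of 40, 2 were higher at day 14 (5.0%), against 6.31% of all genes, and 1 was lower (2.50%), against 5.08%. Col20a1 was 5.31-fold higher (2.41 ± 0.45, limma adjusted p = 0.0270), Col11a2 was higher by 2.59 ± 0.59 with 1 of 2 parotid arrays above background (adjusted p = 0.0436), and Col6a2 was lower by 2.59 ± 0.54 with 1 of 2 day 14 arrays above background (adjusted p = 0.0343). These calls were not kept within slide 1 or without either day 14 array. Each of those fits leaves day 14 with 1 array, so the loss was not read as a result about these genes. With normexp correction, which keeps both day 14 arrays, none of these calls was kept either. Col11a2 then differed by 1.35 and Col6a2 by -0.93, and 2 other members passed as lower, against 1117 of all 16473 genes passing. The Col11a2 call was also lost with the deposited values, with no intensity trend and with only the arrays compared. The differences for Lum, Dcn and Ogn did not pass; the proteoglycans ranged from -1.72 to 1.15.

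Against the submandibular gland, a single array, 12 of the 40 genes differed from untreated tumours. In untreated tumours 4 of the 40 were higher, against 14.3% of all genes, and 8 were lower (20.0%), against 15.1%. The higher genes were the 3 type IX chains and Col16a1. The lower genes were Col4a6, Col7a1, Col17a1, Col20a1, Col23a1, Dcn, Lum and Ogn. Dcn was 26.4-fold lower and Lum 36.0-fold lower (limma adjusted p = 0.00258 and 0.0103). With slide as a block 8 of the 40 passed, and the Lum call was lost (-5.44). Between submandibular and parotid gland none of the 40 genes passed in the limma test, while 2.36% of all genes did, and 4 of the 40 had an unadjusted p under 0.05, against 16.9% of all genes. Leaving out parotid replicate 1 or 2 raised the counts for these genes and over all genes.

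The 2 untreated tumours differed from each other more than the day 14 pair. Of 33 members well above background on both untreated tumours, 30 were higher on replicate 1, with a median of 1.12, against 56.0% of all genes and a median of 0.05. All 9 fibrillar genes measured on both were higher on replicate 1, with a median of 1.69. Dcn ran the other way, with 1.23 on replicate 1 and 2.64 on replicate 2. Between the 2 day 14 arrays 20 of 30 members were higher on replicate 1, with a median of 0.13. Between the parotid glands 4 of 29 were higher on replicate 1, with a median of -0.59, against 35.9% and -0.23 over all genes. Over probes well above background on all 8 arrays, the arrays of a pair correlated at 0.985 for untreated tumours, 0.987 for day 14 and 0.937 for parotid.

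Several of these genes are neighbours on the mm8 positions given for the probes. The Lum and Dcn probes lay 54.9 kb apart on chromosome 10, with Kera, keratocan, 41.0 kb from Lum. Kera was not well above background on any tumour array and was at least 11.9-fold lower in untreated tumours than in parotid glands (limma adjusted p = 0.000572). Ogn lay 31.6 kb from Omd and 57.0 kb from Aspn on chromosome 13. Aspn, asporin, was well above background only on the untreated tumours, at -3.17 and -5.22. Col3a1 and Col5a2 lay 28.0 kb apart on chromosome 1, and Col6a1 and Col6a2 112.9 kb apart on chromosome 10. Fmod and Prelp lay 137 kb apart on chromosome 1. Prelp, a matrix proteoglycan that anchors basement membranes, read -3.14 and -7.43 in untreated tumours, -0.71 after 3 days of rapamycin, 3.01 and 2.74 after 14 days, 2.22 and 2.36 in parotid glands and 3.34 in the submandibular gland.

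Related matrix genes were counted from lists. For these counts and those of the cell markers below, the shares of all genes serve as the reference. In untreated tumours against parotid glands, 18.6% of all genes were higher and 20.3% lower. At day 14 against untreated tumours, 24.3% were higher and 23.3% lower. Of 7 tested further leucine-rich proteoglycans, 5 were lower and none higher in untreated tumours than in parotid glands (median -3.33), and 4 were higher and none lower at day 14 than in untreated tumours (median 1.94). Prelp differed by -7.58 ± 1.23 and 8.17 ± 1.23 in these comparisons (SE; limma adjusted p = 0.00504 and 0.00321), and was well above background on 1 of 2 untreated tumours. The others lower in untreated tumours were Kera, Chad, Ecm2 and Optc. Of these, Optc was dim on all untreated tumour and parotid arrays.

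Of 26 tested genes of collagen biosynthesis and crosslinking, 4 were higher and 3 lower in untreated tumours than in parotid glands (median 0.04). At day 14, 5 were higher and 3 lower than in untreated tumours (median -0.07). Plod2, the lysyl hydroxylase of collagen telopeptides, read 0.68 and -0.18 in untreated tumours, 0.81 after 3 days of rapamycin, -2.37 and -2.22 after 14 days, -2.31 and -2.59 in parotid glands and -2.27 in the submandibular gland. It was higher in untreated tumours than in parotid glands by 2.70 ± 0.38 and lower at day 14 than in untreated tumours by 2.54 on the log2 scale (limma adjusted p = 0.00298 and 0.00311). Like the type IX chains, it was high on the 3 untreated and day 3 arrays and low on the other 5. Pcolce2, an enhancer of procollagen C-terminal cleavage, was dim on both untreated tumours and was at least 30.3-fold lower there than in parotid glands and at least 4.80-fold higher at day 14 than in untreated tumours (adjusted p = 0.000626 and 0.00320).

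Of 9 tested collagen receptors, 1 was higher and 1 lower in untreated tumours than in parotid glands (median -0.65), and 1 was higher and 1 lower at day 14 than in untreated tumours (median 0.11). Itga10, the integrin chain of the chondrocyte collagen receptor, was well above background only on untreated and day 3 tumours. It was at least 2.43-fold higher in untreated tumours than in parotid glands and at least 2.25-fold lower at day 14 than in untreated tumours (limma adjusted p = 0.00637 and 0.00715). It too entered the test only through the groups where it is high, and with normexp correction its differences were 0.55 and -0.47 and did not pass. Both calls were also lost without untreated tumour replicate 2, and the day 14 call without day 14 replicate 1 or with the day 14 arrays counted as 1 sample. Ddr2, a receptor kinase for fibrillar collagen, differed by -3.96 ± 0.48 and 3.25 ± 0.48 (adjusted p = 0.00174 and 0.00296).

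Of 17 tested genes of TGF-beta signalling, 4 were higher and 4 lower in untreated tumours than in parotid glands (median 0.04), and the same numbers held at day 14 against untreated tumours (median 0.38). Ltbp1, which holds latent TGF-beta in the matrix, was higher in untreated tumours than in parotid glands by 2.45 ± 0.33 (limma adjusted p = 0.00248), and Ltbp4 was higher at day 14 than in untreated tumours by 2.72 ± 0.22 (adjusted p = 0.000436). Ltbp1 was above background on 1 of 2 day 14 arrays and 1 of 2 parotid arrays. Of 8 basement membrane partners of type IV collagen, Lama5, a laminin chain of epithelial basement membranes, was higher in untreated tumours than in parotid glands by 1.92 ± 0.24 (adjusted p = 0.00197). Pxdn, the peroxidase that crosslinks type IV collagen, was lower at day 14 than in untreated tumours by 1.20 (adjusted p = 0.0390). No other partner passed in these comparisons, and the list medians were -0.40 and -0.11.

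Markers of the cells that make or surround matrix were counted in the same way. Fibroblast markers had summed levels of 58.3 and 45.8 in untreated tumours, 62.5 after 3 days of rapamycin, 138 and 113 after 14 days, 195 and 346 in parotid glands and 176 in the submandibular gland. Of 14 markers, 1 was higher and 6 lower in untreated tumours than in parotid glands, and 6 were higher and 1 lower at day 14 than in untreated tumours. Pdgfra, a defining receptor of fibroblasts, was dim on all untreated and day 3 tumours and was at least 29.7-fold lower in untreated tumours than in parotid glands (limma adjusted p = 0.00211). Dpt, dermatopontin, was at least 81.8-fold lower (adjusted p = 0.000348). Fbln1, fibulin 1, was the exception, at 4.26 and 4.17 in untreated tumours, against -0.57 and -0.67 in parotid glands. The part of fibroblast number in the levels of Dcn, Lum and Ogn was not tested.

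Skeletal muscle markers had summed levels of 1.84 and 2.16 in untreated tumours, 2.61 after 3 days of rapamycin, 1330 and 1370 after 14 days, 2.63 and 136 in parotid glands and 1.76 in the submandibular gland. Of 9 genes, 2 were lower in untreated tumours than in parotid glands and 8 were higher at day 14 than in untreated tumours. Myh4, a fast muscle myosin, was at least 15600-fold higher and Ckm, muscle creatine kinase, at least 1480-fold higher at day 14 (limma adjusted p = 0.00802 and 0.00158). Adipocyte markers summed to 23.5 and 13.7 in untreated tumours, 89.7 after 3 days of rapamycin, 286 and 254 after 14 days, 53.0 and 218 in parotid glands and 32.2 in the submandibular gland. Of 7 tested, 5 were lower in untreated tumours than in parotid glands and all 7 were higher at day 14 than in untreated tumours, with 9.69 ± 1.88 for Cfd, complement factor D, which 1 of 2 untreated tumours read above background (adjusted p = 0.00777). Plin, the perilipin of fat droplets, was at least 277-fold higher at day 14, and Adipoq, adiponectin, differed by -8.23 between untreated tumour and parotid, with 1 of 2 untreated tumours above background (adjusted p = 0.000700 and 0.00356). Smooth muscle and myoepithelial markers summed to 24.0 and 8.68 in untreated tumours, 37.4 after 3 days of rapamycin, 215 and 222 after 14 days, 35.4 and 109 in parotid glands and 278 in the submandibular gland. Of 7, 5 were lower in untreated tumours than in parotid glands and 6 higher at day 14 than in untreated tumours, with 6.67 ± 0.43 for Myh11, the smooth muscle myosin, and 6.52 for Cnn1, calponin (adjusted p = 0.000257 and 0.00202). The part of these tissues in the day 14 differences was not tested.

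**Figure D4:**
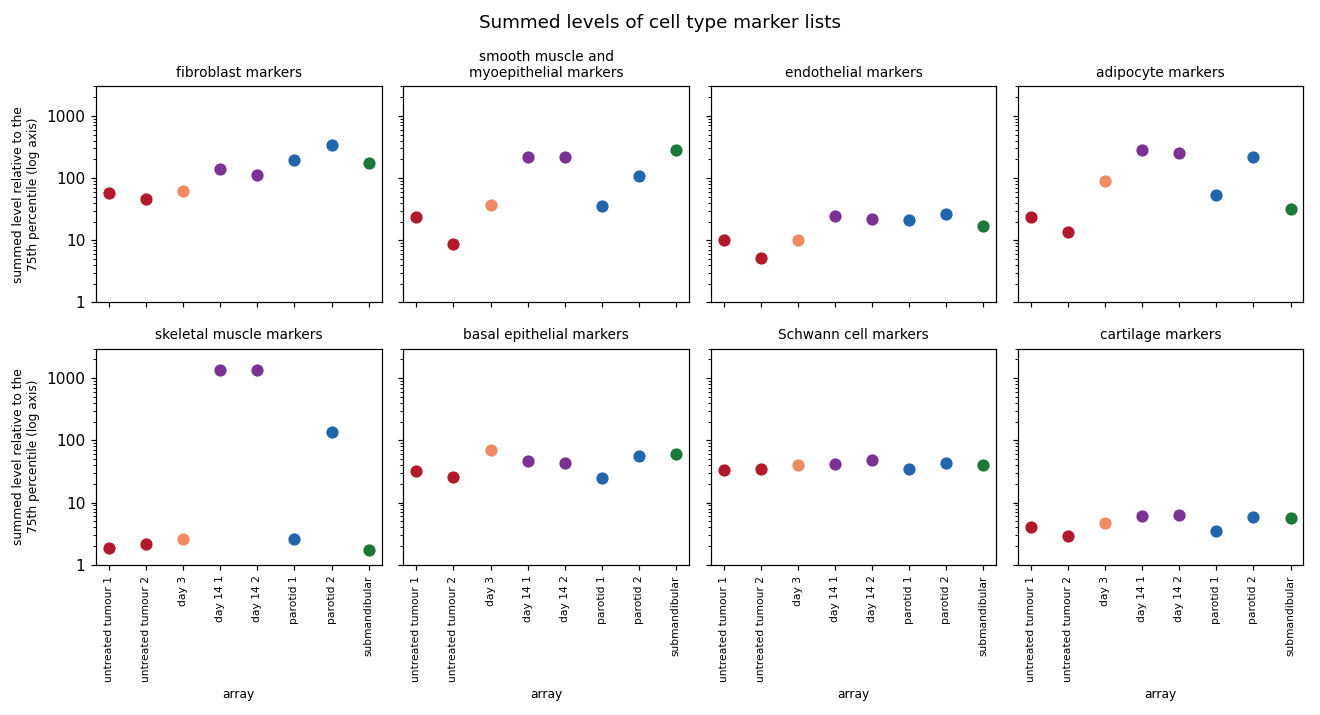
Summed levels of 8 marker lists on each array, as multiples of the 75th-percentile signal (log axis), with 1 point per array. Skeletal muscle markers stood at 1330 and 1370 at day 14 and at 136 in parotid replicate 2, against 1.76 to 2.63 on the other arrays, and fibroblast markers were lowest in untreated and day 3 tumours.

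Endothelial markers summed to 9.92 and 5.20 in untreated tumours, 10 after 3 days of rapamycin, 24.3 and 21.7 after 14 days, 21.2 and 26.0 in parotid glands and 16.7 in the submandibular gland, while Col4a1 and Col4a2 were highest in untreated tumours and at day 3. Of 9 endothelial genes, 4 were lower and none higher in untreated tumours than in parotid glands, and 5 were higher and none lower at day 14 than in untreated tumours. Vwf, von Willebrand factor, differed by -2.63 and 4.38 (limma adjusted p = 0.0234 and 0.00318). Its call against parotid was lost under 7 of 18 alternatives, among them slide as a block (-2.17), slide 1 alone (-1.74) and leaving out untreated tumour replicate 2 (-1.96). Tek, the angiopoietin receptor, was at least 8.33-fold higher at day 14 than in untreated tumours (adjusted p = 0.00229), and between untreated tumour and parotid its reported probe was dim in both (-2.96, adjusted p = 0.00900). Both Tek calls were lost with normexp correction. Cartilage markers were set beside the type IX genes. Of 7 on the array, 2 were tested and at most 2 were well above background on any array, with summed levels of 4.07 and 2.95 in untreated tumours, against 3.47 and 5.81 in parotid glands. Sox9, the transcription factor of chondrocytes, which glands also express, read 2.00 and 1.53 in untreated tumours, against 1.67 and 2.47 in parotid glands. Comp, a cartilage matrix protein, fell by 2.39 in untreated tumours relative to parotid glands, of which 1 of 2 read it above background (adjusted p = 0.00805), and Matn1 was dim on all arrays.

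The remaining lists were of Schwann, macrophage, mast, acinar and basal epithelial cells. Of 6 tested Schwann cell markers 3 were lower in untreated tumours than in parotid glands and 3 were higher at day 14 than in untreated tumours, with summed levels between 33.5 and 47.7 on all arrays. Of 7 macrophage markers 1 was higher and 2 lower in untreated tumours than in parotid glands, and 1 was higher and 3 lower at day 14 than in untreated tumours. Cd163, a scavenger receptor that 1 of 2 untreated tumours read above background, differed by -6.11 and 5.25, and Cd68, a lysosomal protein of macrophages, by -2.95 at day 14 (limma adjusted p = 0.000604, 0.000897 and 0.000696).

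All 4 tested mast cell markers were lower in untreated tumours than in parotid glands, and Mcpt4, a mast cell protease, was at least 69.4-fold lower (limma adjusted p = 0.000519). All 7 acinar markers were lower in untreated tumours than in parotid glands and higher at day 14 than in untreated tumours. Cst10 differed by -13.09 between untreated tumour and parotid, and Muc10, a salivary mucin, by 13.37 between day 14 and untreated tumour, each read above background on 1 of 2 untreated tumours (adjusted p = 0.00805 and 0.000361). Of 5 basal epithelial markers 2 were lower in untreated tumours than in parotid glands and 2 were higher at day 14 than in untreated tumours. Trp63, the transcription factor of basal epithelium, differed by -3.73 and 4.65, and Dst, a hemidesmosome linker, by -1.27 and 3.20 (adjusted p = 0.00126, 0.000565, 0.0269 and 0.000906). The part of these cells in the collagen and proteoglycan values was not tested.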

How the data were processed

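Gene expression in 8 mouse salivary samples was measured on Agilent arrays with 1 colour (design 014868). Per the file headers, the authors read them with Feature Extraction 10.7.3.1, which gave background-subtracted intensity values for each spot, not scaled between arrays, with quality calls. The deposited log2 table has column medians of 5.52 to 5.57 and served as an alternative only, since its normalization is not given in the sources used here. Dropping spots with a non-uniformity or outlier call cost 895 probes, none among the 91 described. No spot was saturated.

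Each signal was taken as log2 of the processed intensity minus the 75th percentile of its array. A probe was kept if some group had it well above background throughout (24279 probes), and the brightest stood for each gene (16473 genes). The 5 group means were estimated by limma 3.58.1 (R 4.3.3), using an intensity trend, leaving 3 residual degrees of freedom, and two-sided p-values were adjusted by Benjamini-Hochberg over all genes with a threshold of 0.05. Groups of 1 array borrow the spread of the replicated ones. A fold over a group in which no probe of a gene was well above background is a bound: the mean of the brighter group over, per array, the higher of the lowest well-above-background signal and the dim probe. The number of arrays limits the precision. The script was tested on simulated data.

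Named throughout were Col1a1, Col1a2, Col3a1, Col4a1, Col4a2 and the 5 proteoglycans, then up to 3 genes past the threshold per other type and up to 2 per list, with others by name and count. Some genes that this rule names are not reported here. The members and lists were chosen with earlier results of these data known. Promoters are from RefSeq. Alternatives tried were another background correction (normexp, offset 50), quantile normalization, the deposited values, other filters and probe rules, no trend, slide as a block or slide 1 alone, only the arrays compared, a 2-fold minimum, and leaving out each replicate. Counting both day 14 arrays as 1 sample was added after seeing the data.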

Additional observations from a re-analysis of the deposited data

How the results depend on the processing

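Named gene calls numbered 117, and under the alternatives 1769 of 2021 recomputed values stayed past the threshold in the same direction, 250 fell short of it and 2 changed sign. Both were Cpa3 at day 14 against untreated tumour, with -0.06 under quantile normalization and -0.04 with the deposited values, a gene dim in both groups. In all, 56 of the 117 calls held under every alternative. Counts of collagen and proteoglycan genes past the threshold moved by over 1.5 times as follows, and the cause was not tested unless stated. With only probes above background on all 8 arrays, 24 of the genes could be tested. Of these, 13 differed at day 14 from untreated tumour, against 5306 of all 11074 genes. Between untreated tumour and submandibular gland 7 of the 24 differed, against 3072 of 11074. Without a filter 22 of 45 differed between untreated tumour and submandibular gland, against 13537 of 27325. Counting the day 14 arrays as 1 sample, which leaves fewer samples, gave 11 at day 14 against untreated tumour, 4 against day 3 and 0 against parotid. With only the arrays compared, 36 differed at day 14 from day 3 and 5 from parotid. Quantile normalization gave 5 for day 14 against parotid, against 2467 of all 16473 genes. Slide 1 alone, with 1 array of each of these groups, gave fewer.

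Leaving out 1 replicate in turn gave 15 to 20 for untreated tumour against parotid, 11 to 26 for day 14 against untreated tumour, 0 to 3 for day 3 against untreated tumour, 4 to 21 for day 14 against day 3, 0 to 7 for day 14 against parotid, 11 to 18 for untreated tumour against submandibular gland and 0 to 2 for submandibular gland against parotid. The counts over all genes moved with these omissions too. A lone array was assumed to vary like the other groups. No paired analysis was possible because the labels of the compared groups share fewer than 2 replicate numbers. Genes dim in a group are limited by the background, and the single day 3 and submandibular arrays by their number.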
